A study of Mus musculus with 6 samples.

Results

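The myeloid C-type lectin receptors described here are 10 genes, Clec4a1, Clec4a2, Clec4a3, Clec4b1, Clec4d, Clec4e, Clec4n, Clec5a, Clec7a and Clec10a, out of 19938 genes measured. They were chosen by name as receptors of this family on myeloid cells, with earlier results of these data known. Each was represented by the one probe set that the platform table pairs with its symbol alone. The RNA came from F4/80+ cells of tumours that had been implanted in St2-/- mice (3 samples) or wild type mice (3 samples), each on its own Affymetrix Gene 1.0 ST array. F4/80 is a marker on the surface of macrophages in mice, and ST2 is the IL-33 receptor. The genotype is that of the host, and the labels name neither the tumour, the strain, the age nor any treatment. Separate animals are not stated for the 3 samples of a group, and the p-values therefore reflect only how far these samples spread, possibly for technical reasons.

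C-type lectin receptors bind sugars or lipids of microbes and of dying cells through a shared extracellular fold. Some of them signal through the adaptors Fcer1g or Tyrobp, or through a tyrosine motif of their own, to the kinase Syk and then to Card9, Bcl10 and Malt1, which activate NF-kB. Others, such as Clec4a2, carry an inhibitory tyrosine motif that recruits the phosphatases Ptpn6 and Ptpn11. On macrophages the family is known for the recognition of fungi and mycobacteria, and Clec10a and the related mannose receptor Mrc1 are widely used as markers of alternatively activated cells.

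The promoters of the 3 members with the largest differences among those with an entry in the RefSeq promoter table are shown first, because 2 of these genes rose and 1 fell although all lie in one cluster on chromosome 6. Each window runs 5′ to 3′ from 250 bases before the gene's start to 50 bases after it (GRCm38.p6). Capitals mark GAGGAA, a core of sites for the myeloid factor PU.1, or its reverse complement TTCCTC.
Clec4b1, chr6:123049712-123050011, plus strand: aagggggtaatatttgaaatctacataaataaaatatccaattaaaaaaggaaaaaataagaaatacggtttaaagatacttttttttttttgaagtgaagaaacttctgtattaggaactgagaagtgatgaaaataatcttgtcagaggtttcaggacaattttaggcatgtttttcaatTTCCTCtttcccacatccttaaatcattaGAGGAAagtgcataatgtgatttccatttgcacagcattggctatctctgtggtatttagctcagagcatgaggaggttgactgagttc
Clec4a1, chr6:122921598-122921897, plus strand: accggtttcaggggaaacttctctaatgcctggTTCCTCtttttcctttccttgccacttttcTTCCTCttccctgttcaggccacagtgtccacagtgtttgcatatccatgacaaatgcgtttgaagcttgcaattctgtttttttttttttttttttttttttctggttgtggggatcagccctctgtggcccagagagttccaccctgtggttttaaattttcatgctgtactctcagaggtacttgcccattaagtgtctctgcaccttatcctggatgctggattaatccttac
Clec4d, chr6:123261857-123262156, plus strand: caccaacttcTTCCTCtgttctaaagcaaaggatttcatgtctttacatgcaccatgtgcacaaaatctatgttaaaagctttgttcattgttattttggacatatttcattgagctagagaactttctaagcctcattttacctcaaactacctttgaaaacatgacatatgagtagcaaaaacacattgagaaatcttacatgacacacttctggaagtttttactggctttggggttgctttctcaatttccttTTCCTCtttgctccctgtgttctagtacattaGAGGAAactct
The Clec4b1 and Clec4a1 windows each held 2 matches and the Clec4d window held 3. Of the 10 members, 8 had at least 1 window in the table, with 10 windows in all, since Clec4a3 and Clec7a had overlapping windows. A match on either strand was present in 8 of the 10 windows, from 7 genes, against 28.3% of all 32851 windows. The letters GAAANNGAA, which interferon response elements contain, were matched in the Clec4b1 and Clec4d windows and in 8.56% of all windows, so they were present both in a gene that rose and in a gene that fell. The STAT letters TTCNNNGAA were matched among the members in Clec4a2 alone (8.3% of all windows), as were the AP-1 letters TGANTCA (7.81%), and the C/EBP letters TTGCNNAA in Clec4e alone (10.8%). All searches covered both strands, and matches of different motifs were allowed to overlap. A match describes these letters only and is neither a binding site nor a cause.

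The arrays within a group correlated at 0.996 to 0.998 over all genes, and arrays of different groups at 0.986 to 0.988. Median log2 values were 5.81 to 5.82 on the St2-/- arrays and 5.88 to 5.93 on the wild type arrays. The gene of ST2 was not analysed here, so the genotypes were not checked against it. Of 8 macrophage markers measured, 2 were called higher, 1 lower and 5 were not called, and their mean log2 level was 11.69 to 11.76 on the St2-/- arrays and 11.71 to 11.72 on the wild type arrays. Every value below is a log2 RMA value as deposited, and a difference is St2-/- minus wild type with its standard error (SE) from limma. A gene was called when its limma p, adjusted over all genes by the Benjamini-Hochberg method, was under 0.05. RMA gives no detection limit, and a level of one probe set cannot be set against that of another.

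Of the 10 receptor genes, 3 rose in St2-/- samples, namely Clec4a1, Clec4a2 and Clec4b1. A further 3 fell, namely Clec4d, Clec7a and Clec10a, and 4 were not called. Among all genes 20.8% were called, 10.7% higher and 10% lower. With arrays centred on their medians, the split over all genes was 3686 higher and 1294 lower, against 2142 higher and 1998 lower with the values as deposited. Centring raised the difference of every gene by the same amount, and the median over all genes went from -0.023 to 0.067. Calls gained or lost after centring, here and below, include this shift. The values that follow are as deposited. The median difference was 0.02 for the 10 members and -0.02 for all genes, so the members moved apart and not as a block. The groups did not overlap in 8 of the 10 members, which compares with 36.4% of all genes. The change was at least 2-fold in 1 member, Clec4b1. In these bulk samples, fewer cells of a type and less RNA per cell cannot be told apart.

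**Figure D1:**
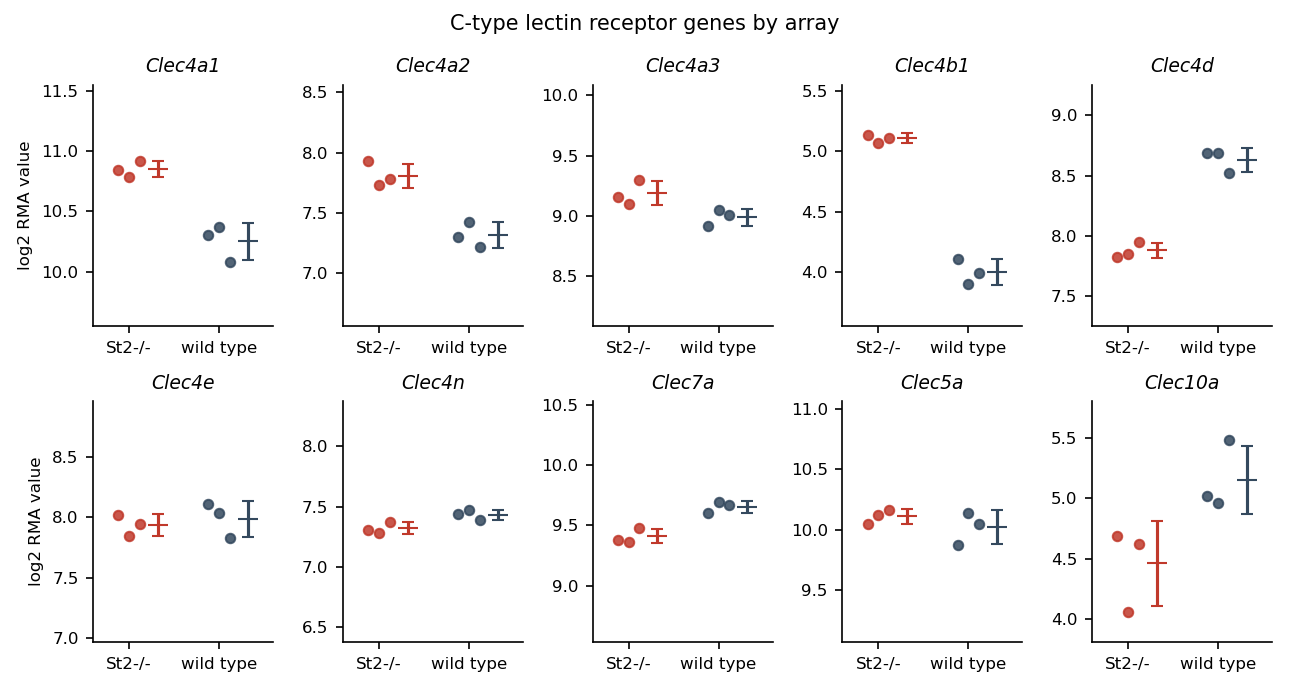
Log2 RMA values of the 10 receptor genes, with 1 point per array, St2-/- left and wild type right, and the mean ± SD (n = 3) as a bar beside the points. Every panel spans the same height of 2 log2 units. The St2-/- points sit above wild type for Clec4a1, Clec4a2, Clec4a3 and Clec4b1, below it for Clec4d, Clec4n, Clec7a and Clec10a, and among the wild type points for Clec4e and Clec5a.

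The receptors related to the dendritic cell immunoreceptor (DCIR) were higher or not called. Clec4b1 encodes DCAR, an activating receptor that pairs with Fcer1g in mice and recognises mycobacterial glycolipids. It had log2 values of 5.14, 5.07 and 5.11 in St2-/- samples, against 4.11, 3.90 and 3.99 in wild type samples. Every St2-/- array lay above every wild type array, and the difference of 1.11 ± 0.0715 (SE) was a 2.15-fold rise (limma adjusted p = 5.34e-06). The gene was among the dimmest 40% of genes, those with a mean log2 value under 5.26. Clec4a1 encodes DCIR4, a member of the same subfamily. Its log2 values were 10.84, 10.78 and 10.92 in St2-/- samples, against 10.30, 10.37 and 10.08 in wild type samples. The groups were apart, and the difference of 0.60 ± 0.0855 (SE) was a 1.51-fold rise (limma adjusted p = 9e-04).

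Clec4a2 encodes DCIR itself, the inhibitory receptor of this subfamily that signals through Ptpn6 and Ptpn11. It had log2 values of 7.93, 7.73 and 7.78 in St2-/- samples, against 7.30, 7.43 and 7.22 in wild type samples. All 3 St2-/- arrays were the higher ones, and the difference was 0.50 ± 0.0806 (SE), 1.41-fold (limma adjusted p = 0.00192). Clec4a3 encodes DCIR3. Its log2 values were 9.16, 9.10 and 9.30 in St2-/- samples, against 8.92, 9.05 and 9.01 in wild type samples. Although the groups did not overlap, the difference of 0.19, with a 95% interval of 0.03 to 0.36, was not called (limma adjusted p = 0.0996). It was called after each array was centred on its median (difference 0.28, limma adjusted p = 0.0228) and with a variance prior that follows intensity (0.0258). The coding sequences of this subfamily are alike, and the probes may not separate its members fully.

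The receptors encoded at the other end of the same cluster were lower or not called. Clec4d encodes MCL, also called Dectin-3, a receptor for mycobacterial cord factor that assembles with Mincle. It had log2 values of 7.83, 7.85 and 7.95 in St2-/- samples, against 8.69, 8.69 and 8.52 in wild type samples. All St2-/- arrays lay below all wild type arrays, and the difference of -0.76 ± 0.0729 (SE) was 1.69-fold lower (limma adjusted p = 6.99e-05). Clec4e encodes Mincle, which binds cord factor and the nuclear protein Sap130 released by dead cells. Its log2 values were 8.02, 7.85 and 7.95 in St2-/- samples, against 8.11, 8.04 and 7.83 in wild type samples. The groups overlapped, and the difference of -0.05 (95% interval -0.25 to 0.14) was not called (limma adjusted p = 0.72). The wild type arrays spread more widely than the St2-/- arrays for this gene, with SDs of 0.09 in St2-/- and 0.15 in wild type (n = 3 each).

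Clec4n encodes Dectin-2, which binds mannans of fungi and signals through Fcer1g. It had log2 values of 7.31, 7.28 and 7.37 in St2-/- samples, against 7.44, 7.47 and 7.39 in wild type samples. The St2-/- arrays were all lower, but the difference of -0.11 (95% interval -0.25 to 0.03) was not called (limma adjusted p = 0.245). The intervals of Clec4e and Clec4n exclude a fall as large as that of Clec4d, whose own 95% interval was -0.92 to -0.59. Neutrophils and monocytes are known to express Clec4d and Clec4e. Of 10 neutrophil markers 4 were called lower and 1 higher, with a median difference of -0.12. The 5 not called differed by -0.12 to 0.03. Mean log2 levels of the 10 markers were 4.80 to 4.84 on the St2-/- arrays and 5.30 to 5.34 on the wild type arrays. Among them S100a8 differed by -1.77, S100a9 by -1.69 and Retnlg by -1.28, all called. The 1 called higher was Csf3r, the receptor of the granulocyte growth factor G-CSF, named after its value was seen, with a difference of 0.50. Of 5 classical monocyte markers 3 were called lower and 1 higher. Large differences went both ways, with F13a1 at -2.73 and Chil3 at -1.53, but Plac8, the 1 called higher, at 3.18. The mean log2 level of the 5 markers was 6.52 to 6.60 on the St2-/- arrays and 6.84 to 6.93 on the wild type arrays. The part of these cells in the fall of Clec4d was not tested.

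Clec7a encodes Dectin-1, the receptor for fungal beta-glucan, which carries its own tyrosine motif and needs no adaptor. Its log2 values were 9.38, 9.36 and 9.48 in St2-/- samples, against 9.60, 9.69 and 9.67 in wild type samples. The groups were apart by a small step, and the difference of -0.25 ± 0.0654 (SE) was 1.19-fold lower (limma adjusted p = 0.0253). The call was lost without St2-/- replicate 1 (limma adjusted p = 0.0817) or 2 (0.0868), without wild type replicate 2 (0.0689) or 3 (0.0611), after each array was centred on its median (-0.16, 0.135), and when all rows of the table were tested (0.0508). Clec5a encodes MDL-1, which signals through Tyrobp. It had log2 values of 10.05, 10.12 and 10.16 in St2-/- samples, against 9.87, 10.14 and 10.05 in wild type samples. The groups overlapped, and the difference of 0.09 (95% interval -0.09 to 0.27) was not called (limma adjusted p = 0.486).

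Clec10a encodes MGL1, a receptor for galactose and N-acetylgalactosamine on macrophages and dendritic cells, and is the only member outside chromosome 6, on chromosome 11. Its log2 values were 4.69, 4.06 and 4.62 in St2-/- samples, against 5.02, 4.96 and 5.48 in wild type samples. The groups did not overlap, but the arrays of each group were spread more than for any other member, with SDs of 0.35 in St2-/- and 0.28 in wild type (n = 3 each). The difference was -0.70 ± 0.178 (SE), 1.62-fold lower (limma adjusted p = 0.0213). Without St2-/- replicate 2 it was -0.50 (limma adjusted p = 0.0542) and without wild type replicate 3 it was -0.53 (0.0658), so the call rested on both of these arrays. The call was also lost when all rows of the table were tested (0.0823), and in a plain two-sample test (adjusted p = 0.183). Clec10a, like Clec4b1, was among the dimmest 40% of genes. The count of members called lower was 1 without St2-/- replicate 2 or without wild type replicate 3, where Clec4d kept its call, and 3 with all arrays.

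The other receptor gene next to Clec10a moved the same way. Mgl2, the close relative of Clec10a, had log2 values of 4.72, 4.81 and 5 in St2-/- samples, against 5.92, 5.70 and 5.94 in wild type samples. It fell by 1.01 on the log2 scale (SE 0.0936, limma adjusted p = 5.45e-05) and varied less between arrays than Clec10a. Both genes share sequence, and the probes may not separate them fully. The other 3 flanking genes in the reference gene order were not called.

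Gene order in the chromosome 6 cluster ran Clec4a1, Clec4a3, Clec4a4, Clec4b1, Clec4a2, Clec4b2, Clec4n, Clec4d and Clec4e. It holds 7 members and 2 further receptor genes that were measured. The 3 called rises lay in the part up to Clec4a2 and the 1 called fall lay at Clec4d. Of the 2 further genes, Clec4a4, which encodes another inhibitory DCIR, differed by 0.32 (limma adjusted p = 0.0779) and was not called. It was called without St2-/- replicate 1 (0.43, limma adjusted p = 0.0216), without wild type replicate 2 (0.40, 0.043), after centring (0.41, 0.0266) and with the intensity-dependent prior (0.0434). Clec4b2, a relative of Clec4b1, had log2 values of 4.11, 4.25 and 4.25 in St2-/- samples, against 4.27, 4.04 and 4.28 in wild type samples, which overlapped. Its difference was 0.01 (95% interval -0.18 to 0.19), so a rise of the array value as large as that of Clec4b1 was outside its interval. Clec4a4 and Clec4b2 were both among the dimmest 40% of genes, where a change of the transcript may not show in the array value. Necap1, the endocytosis gene just outside the cluster, rose by 0.50 (limma adjusted p = 0.000782), and C3ar1, the complement receptor gene beyond it, differed by -0.03 and was not called.

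**Figure D2:**
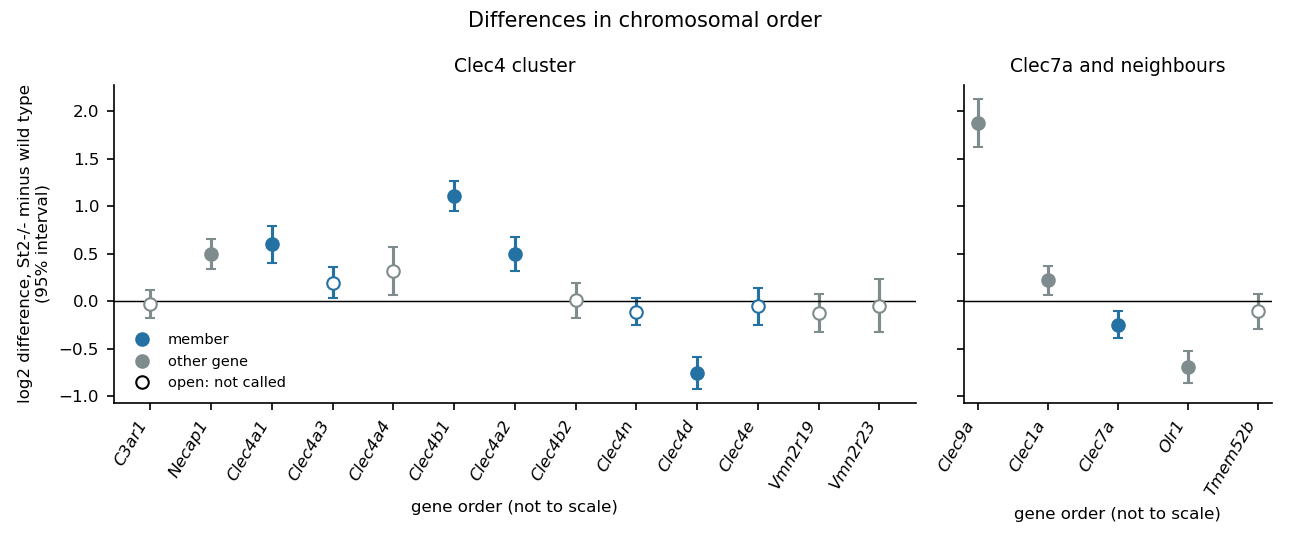
Log2 difference, St2-/- minus wild type, with its 95% interval from limma, for genes in chromosomal order along the Clec4 cluster (left) and around Clec7a (right), with blue for members, grey for other genes and open points for genes not called. Filled points above 0 end at Clec4a2 within the cluster, and Clec4d is its one filled point below 0. Clec9a lies at 1.88 and Clec7a at -0.25.

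Around Clec7a the genes differed in both directions. Clec9a, which recognises dead cells and marks cross-presenting dendritic cells, had log2 values of 6.33, 6.04 and 6.38 in St2-/- samples, against 4.55, 4.19 and 4.38 in wild type samples. The groups were far apart, with a difference of 1.88 ± 0.113 (SE), the largest rise of the C-type lectin receptor genes measured here (limma adjusted p = 3.37e-06). Olr1, the receptor for oxidised LDL on the other side of Clec7a, fell by 0.69 on the log2 scale (SE 0.0756, limma adjusted p = 0.000157). Clec1a, between Clec9a and Clec7a, had a difference of 0.22 (limma adjusted p = 0.0477), and its call was lost without any one of the 6 arrays (0.063 to 0.147). Over all 16 flanking genes examined, 2 on each side of the cluster and of the 3 single genes, 3 were called higher, 2 lower and 11 were not called.

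Among 29 other C-type lectin receptor genes, 4 were called higher, 5 lower and 20 were not called, with a median difference of 0.00, against -0.02 for all genes. With arrays centred on their medians 7 were called higher, and in a plain two-sample test 3 were called lower. Mrc1, the mannose receptor, fell most of them, with log2 values of 9.66, 9.62 and 9.66 in St2-/- samples, against 11.28, 11.29 and 11.28 in wild type samples. Its difference of -1.64 ± 0.0588 (SE) was 3.11-fold lower (limma adjusted p = 1.35e-07). Clec2d, the ligand of an NK cell receptor, rose by 0.65 (SE 0.0749, limma adjusted p = 0.000209), and Clec12a, an inhibitory receptor for uric acid crystals, rose by 0.53 (SE 0.0649, limma adjusted p = 0.000311). Both were singled out after their values were seen. Of 11 dendritic cell markers, 5 were called higher and 2 lower, with a median difference of -0.01. Their mean log2 levels were 6.42 to 6.47 on the St2-/- arrays and 5.75 to 5.88 on the wild type arrays. Without single arrays the lower count was 0 to 2. The list includes Clec9a. The other dendritic cell genes with the smallest p were Xcr1 and Itgax, with differences of 3.37 and 1.80. Flt3 and Zbtb46, which define dendritic cells and were singled out after their values were seen, differed by -0.01 and -0.24 and were not called. Flt3 was among the dimmest 40% of genes. Zbtb46, with means of 5.16 in St2-/- and 5.4 in wild type samples, lay near the cut of 5.26. The part of dendritic cells in the rises of the Clec4a and Clec4b1 genes was not tested.

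The signalling machinery below the receptors was higher in part. Of 28 adaptor and Syk-Card9 pathway genes measured, 13 were called higher, 2 lower and 13 were not called, with a median difference of 0.20, against -0.02 for all genes. Among all genes 20.8% were called, a share that also stands beside the counts of the other lists. None of the 28 was among the dimmest 40% of genes. With those dim genes left out, fewer genes were tested but 4507 were called, against 4140 of all 19938 genes. The share called among the brighter genes was therefore above 20.8%, which is a low mark to set beside this list. Malt1, the protease partner of Card9 and Bcl10, had log2 values of 8.29, 8.25 and 8.38 in St2-/- samples, against 7.68, 7.68 and 7.76 in wild type samples. It rose by 0.60 (SE 0.0656, limma adjusted p = 0.000155), with all St2-/- arrays above all wild type arrays. Pik3ap1, an adaptor for PI3 kinase, rose by 0.60, the Syk substrate Blnk by 0.56 and the transcription factor gene Irf5 by 0.54. The count of genes called higher was 10 to 12 without single arrays. The count called lower was 0 or 1 without any one array, and 0 after each array was centred on its median.

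The central genes of this pathway, chosen after their values were seen, differed by small amounts. Syk had log2 values of 8.81, 8.75 and 8.83 in St2-/- samples, against 8.39, 8.57 and 8.36 in wild type samples, a difference of 0.36 (limma adjusted p = 0.00756). Its groups did not overlap, although a plain two-sample test gave an adjusted p of 0.0508. The adaptor gene Tyrobp, the partner of Clec5a, had a difference of 0.27 (limma adjusted p = 0.0127), lost without St2-/- replicate 3 (0.0608) and after cyclic loess (0.0798). The adaptor gene Fcer1g, the partner of Clec4b1, Clec4d, Clec4e and Clec4n, had log2 values of 12.94, 12.85 and 12.94 in St2-/- samples, against 12.70, 12.74 and 12.71 in wild type samples. The groups were apart, and the difference of 0.19 was not called (limma adjusted p = 0.0537). It was called after centring (0.28, limma adjusted p = 0.0103) and with 3 further settings. Card9 differed by -0.03 (95% interval -0.19 to 0.12, limma adjusted p = 0.781), with overlapping groups.

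On the inhibitory side, 5 of 18 phosphatase, Dok adaptor and inhibitory receptor genes were called higher, 2 lower and 11 were not called, with a median difference of 0.05. Ptpn6, the phosphatase recruited by Clec4a2 and singled out after its values were seen, had a difference of 0.29 (limma adjusted p = 0.00811). Siglece, an inhibitory receptor for sialic acid, rose by 1.13 and the adaptor gene Dok1 by 0.75, while its relative Dok2 fell by 1.10 on the log2 scale, and Cd300a, an inhibitory lipid receptor, rose by 0.49. After centring 8 of these 18 genes were called higher, and 1 of them was called lower without St2-/- replicate 3. Other receptors that use Fcer1g or Tyrobp moved both ways, with 4 higher, 2 lower and 5 not called of 11 measured, and a median of 0.00. Among these the IgG receptor genes Fcgr4 and Fcgr1 rose by 1.39 and 0.36, Pilrb1 rose by 0.53, and Cd300lb, a receptor coupled to Tyrobp, fell by 0.54 on the log2 scale.

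Genes that these receptors are known to induce were also divided. Of 22 cytokine and response genes, 4 were called higher, 7 lower and 11 were not called, with a median of -0.09. Nos2, the inducible nitric oxide synthase, rose by 1.38, Acod1, which makes itaconate, by 0.94 and Il1b by 0.65, while the neutrophil chemokine gene Cxcl2 fell by 0.95 on the log2 scale. After centring 7 of them were called higher. Of 8 genes for endogenous ligands and partners, 2 were called lower and 6 were not called, with a median of -0.01. Siglec1, a partner that MGL1 can bind, fell by 0.51 on the log2 scale and Anxa1, a ligand of Dectin-1, by 0.32. Sap130, the Mincle ligand, and Lgals9, a Dectin-1 ligand, differed by 0.17 and 0.13 and were not called, but were called after centring (limma adjusted p = 0.0228 and 0.0346).

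**Figure D3:**
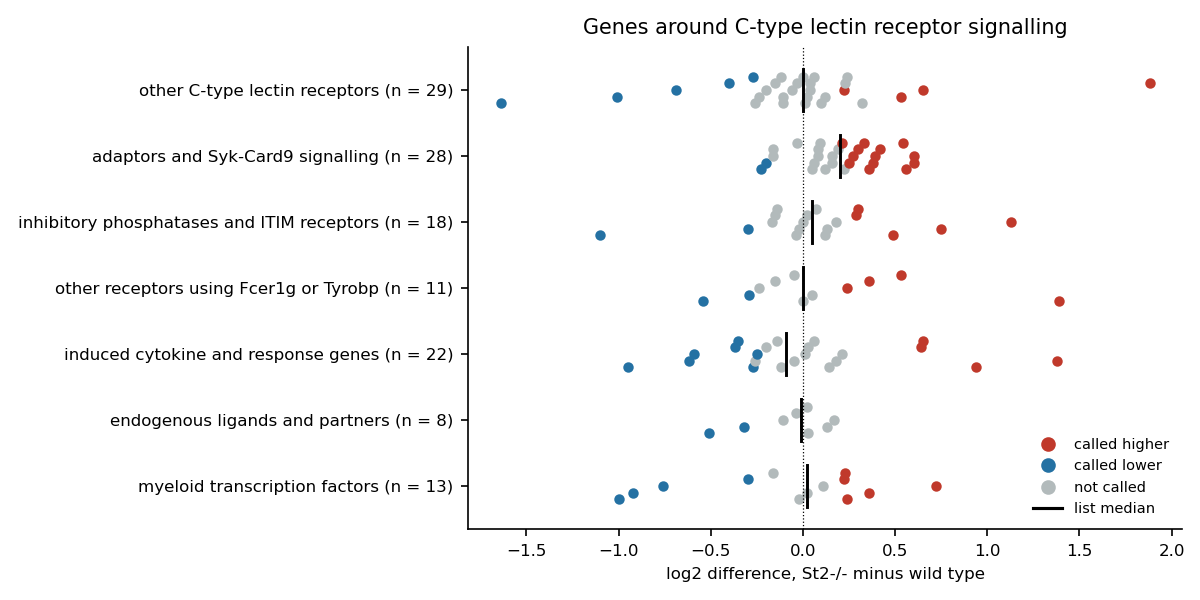
Log2 difference, St2-/- minus wild type, of every measured gene in 7 lists around C-type lectin receptor signalling, with 1 point per gene, red for genes called higher, blue for genes called lower, grey for genes not called, and a black line at the list median. The adaptor and Syk-Card9 list has its median at 0.20, and each of the other 6 medians lies between -0.09 and 0.05.

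Transcription factors of myeloid cells were called in 9 of 13 cases, 5 higher and 4 lower, with a median of 0.02. Irf8, needed for dendritic cells and monocytes, rose by 0.72, while Klf4, a factor of alternative activation, Nr4a1, a factor of patrolling monocytes, and Tfec, a macrophage factor induced by IL-4, fell by 0.92, 0.76 and 1.00 on the log2 scale. The count called higher was 2 without any one of the St2-/- arrays or without wild type replicate 2, 3 without wild type replicate 3 and 4 without wild type replicate 1.

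The arrays of a group did not scatter evenly over the 10 members. St2-/- replicate 2 was the lowest of its group in 8 members and the highest in 0, and St2-/- replicate 3 was the highest in 6. Among wild type arrays, replicate 2 was the highest in 7 members and replicate 3 the lowest in 5. Such counts were not made over all genes, so a trait of the members cannot be told from one of the whole arrays. Over the members, the SD within a group was 0.04 to 0.35.

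The genes whose centred values over the 6 arrays lay closest to those of Clec4b1 were Siglece, the sialyltransferase gene St3gal6 and Tgfb3. Their root mean square differences from it were 0.0195, 0.0364 and 0.0475 log2 units. Siglece had log2 values of 9.12, 9.05 and 9.10 in St2-/- samples, against 8.08, 7.88 and 7.92 in wild type samples. It was picked for closeness on these same arrays, so its likeness to Clec4b1 array by array follows from that choice. Closest to Clec4d were Itsn1, an endocytosis scaffold, the potassium channel gene Kcnma1 and the nuclear receptor gene Nr4a1, at 0.0377, 0.0403 and 0.0435 log2 units. With 2 groups of 3 arrays, this likeness mostly reflects the size of the difference between the genotypes.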

How the data were processed

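The deposited log2 values come from RMA, per the submitters' processing notes. Version, annotation and log base were not stated in the sources used here, and log2 was assumed as the scale that RMA returns. Its quantile normalization hides any shift common to most genes. Of 35556 rows, 21789 had 1 gene symbol in the platform table, 1621 had several and 12146 were not listed. Each gene was taken from its brightest row (mean of the 6 arrays), giving 19938 genes, and 99.6% of their identifiers matched the RefSeq gene table (GRCm38.p6), used for gene order and promoters. St2-/- was compared with wild type in limma 3.58.1 (R 4.3.3; lmFit and eBayes, two-sided, Benjamini-Hochberg over all genes), tested on simulated data. Named genes are the 10 members, up to 4 genes of each list and up to 3 of each marker list by smallest p, the flanking genes, and the 3 nearest in centred values to the members with the greatest rise and fall. Flanking and marker genes that were not called are mostly given as counts. The same holds for called genes of the macrophage markers and of the other marker lists below. Some of these differed widely, such as Lum by -3.56 and Cd4 by 2.19. Genes outside this rule are said to have been named after their values were seen. The members and lists were chosen with earlier results of these data known. Listed genes without a row of 1 symbol were not analysed here. Of the other marker lists, T cell markers had 6 of 7 called higher, NK cell markers 2 of 8 higher, B cell markers 2 of 5 higher, fibroblast markers 6 of 7 lower and 1 higher, endothelial markers 3 of 6 higher and 2 lower, and epithelial markers 1 of 5 lower. Without single arrays the endothelial count higher was 2, and the epithelial count lower was 0 or 1 (0 without any one St2-/- array or wild type replicate 3). Plasmacytoid dendritic cell markers (4 measured) and eosinophil and mast cell markers (8 measured) had 0 called in limma, 0 in the plain two-sample test, and an unadjusted p under 0.05 for 0 and 1 genes in that order.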

Additional observations from a re-analysis of the deposited data

How the results depend on the processing

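The results were recomputed under 16 alternatives. Clec4a1, Clec4a2, Clec4b1 and Clec4d kept direction and call in every alternative that tested them (Clec4b1 was not tested once dim genes were left out), with adjusted p-values up to 0.013 in limma (Clec4a2, all rows tested) and up to 0.0383 in the plain two-sample test (Clec4a2). Of all genes, 2703 were called in a plain two-sample test, against 4140 in limma. Members called lower numbered 1 when all rows of the table were tested, and 1 to 3 when single arrays were left out; members called higher stayed at 3 and genes called at 2887 to 3852 there. Small differences of genes not called turned sign: Clec4e was 0.04 after centring on array medians and -0.13 to 0.01 without single arrays, Clec5a was -0.01 after cyclic loess, Card9 was 0.06 after centring, Clec4b2 was -0.07 to 0.05 without single arrays, and Flt3 was 0.08 after centring, 0.07 after cyclic loess, 0.03 with array weights and -0.11 to 0.15 without single arrays. With the replicate block 3571 genes were called, and 3 members higher and 3 lower. The replicate numbers gave correlations of deviations of 0.0118, -0.0116 and -0.0477 between same-numbered arrays. No pairing was visible in these values, which do not show whether same-numbered samples were handled together. The causes were not tested. RMA gives no detection limit, so how far dimness limits the differences of Clec4b1, Clec10a, Clec4a4, Clec4b2 and Flt3 is unknown.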
